A study of Mus musculus with 14 samples.

Results

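The cytochrome P450 genes of families 1, 3 and 4 were taken as those genes of the deposited gene table whose symbol starts with Cyp, then 1, 3 or 4, a letter and a number. They were 31 of the 17552 genes of the table. The subfamilies held 2 genes of Cyp1a, 1 of Cyp1b, 9 of Cyp3a, 7 of Cyp4a, 1 of Cyp4b, 9 of Cyp4f, 1 of Cyp4v and 1 of Cyp4x. RNA was taken from the liver of male Apoe-deficient mice of strain C57BL/6 (C57BL/6J in the study's methods), given as 8 weeks old by the labels, and enriched for polyadenylated molecules. The deficiency of Apoe, which encodes the lipoprotein component apolipoprotein E, was shared by both groups. The control group received a Western diet for 8 weeks according to the labels, and the erythrodiol group the same diet with 10 mg/kg of erythrodiol, a triterpene of olives, while the study's methods give a longer feeding period. Each group had 7 libraries, each from RNA pooled over a few animals. The question was which hepatic transcripts differ when erythrodiol is added to the diet.

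Cytochromes P450 are heme enzymes of the endoplasmic reticulum that insert an oxygen atom into their substrates with electrons from the reductase Por. Those of family 1 oxidize planar aromatic compounds and are induced through the aryl hydrocarbon receptor (AhR). Those of subfamily 3a are abundant in hepatocytes, oxidize steroids, bile acids and many drugs, and are induced through the receptors PXR and CAR. Those of family 4 hydroxylate the far end of fatty acids and eicosanoids, and Cyp4a10 and Cyp4a14 are classical targets of the fatty acid receptor PPARA.

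Gene expression was available as 1 expected count of read pairs per gene and group. The counts summed to 122889032 in the control and 124686047 in the erythrodiol group, beside 122887639 and 124690110 read pairs that the mapping rates of the 7 libraries per group give, so each gene had a sum over the libraries and no replicates. A difference between the groups could therefore not be compared with the spread between libraries, and no test of the diets was possible for any gene. Intervals in parentheses are 95% exact binomial intervals that cover counting error only. Libraries held 34856340 to 55244294 clean reads in the control and 47669656 to 48058606 in the erythrodiol group. Of these reads, 64.3% to 81.4% and 73.0% to 76.1%, respectively, mapped to genes. Control replicate 3 had the lowest share, 64.3% beside 74.4% in the next control. Reads mapped to a unique gene were 51.4% to 67.1% in the control, with replicates 1, 3 and 4 at 51.4%, 52.7% and 54.2%, and 57.9% to 65.3% in the erythrodiol group. Control replicate 1 also had the fewest genes detected, 14500 beside 14863 in the next. The part of these libraries in the sums cannot be separated. The targeted gene Apoe (chromosome 7, 19696244 to 19701310 of GRCm38) was still counted in both, with 9403 counts in the control and 8293 in the erythrodiol group. By RT-PCR, the study found no hepatic expression of Apoe in its Apoe-deficient mice. A count summed over the whole gene does not show whether the transcript is intact. All 11 hepatocyte defining markers of the table were present, at a summed level of 118528 and 120212 counts per 1000000 (CPM).

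The ratio of the groups was computed from each gene's share of the total count of its group, given in CPM. Over the 13291 genes whose counts in both groups added up to at least 100, the median log2 ratio of erythrodiol to control was 0.16, and 71.2% of the genes were higher with erythrodiol. The median also differed with transcript length, from -0.30 in the shortest of 20 length classes to 0.35 in the longest. Each ratio is therefore also given relative to the median of its length class, called relative to like length. Levels of different genes were compared per length, as transcripts per 1000000 (TPM). TPM moves every log2 ratio up by 0.15, whereas the scaling of edgeR (TMM) moves it down by 0.16 and that of DESeq2 by 0.15. The direction of a difference smaller than that can depend on the scaling.

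Of the 31 genes, 23 had at least 100 counts, and calls and medians are over these 23. None of the 23 was past 1.5-fold in CPM, in either direction. Among all genes tested, 2.55% were at least 1.5-fold higher and 3.14% at least 1.5-fold lower. Relative to like length the number was again 0 in both directions, beside 1.07% of all genes higher and 3.57% lower. By TPM, 2 genes, Cyp1a2 and Cyp4f17, were past 1.5-fold higher, beside 10.2% of all genes, and 0 were lower, beside 1.67%. The log2 ratios of the 23 genes ran from -0.43 for Cyp3a57 to 0.48 for Cyp4f17, with a median of 0.13 beside 0.16 for all genes, and 15 were higher and 8 lower. With only 23 genes, a count of 0 beside shares this small does not set the members apart from other genes.

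A lower limit of 1.2-fold was chosen after the values were seen. In CPM, 7 of the 23 genes were at least 1.2-fold higher, namely Cyp1a2, Cyp4a12b, Cyp4a14, Cyp4f13, Cyp4f14, Cyp4f15 and Cyp4f17, while 33.7% of all genes were. Cyp3a25, Cyp3a57 and Cyp4f18 were at least 1.2-fold lower, beside 11.4% of all genes. Relative to like length, Cyp1a2, Cyp4f13 and Cyp4f17 were past this limit upwards, beside 9.62% of all genes. Cyp3a25, Cyp3a57, Cyp3a59, Cyp4f16 and Cyp4f18 were past it downwards, beside 17.6%. Just inside the limits relative to like length lay Cyp4a12b at 0.25 and Cyp3a13 at -0.25. Shares this near to the background are no result about these genes as a set. Direction was also compared under 5 scalings (totals, TMM, median of ratios, like length and TPM). Of the 23 genes, 10 were higher and 5 were lower under each, and the direction of the other 8 depended on the scaling. The share of all genes that meet the same rule was not computed, so these counts are no result about the set either. They count signs only, and Cyp4f39 among the 10 and Cyp3a57 among the 5 had intervals in CPM that included no difference. Also within counting error of no difference were Cyp4a12a under TMM, at 0.016, and 3 genes by TPM. These were Cyp3a59 at -0.05, Cyp4f16 at -0.05 and Cyp4f18 at -0.15.

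**Figure D1:**
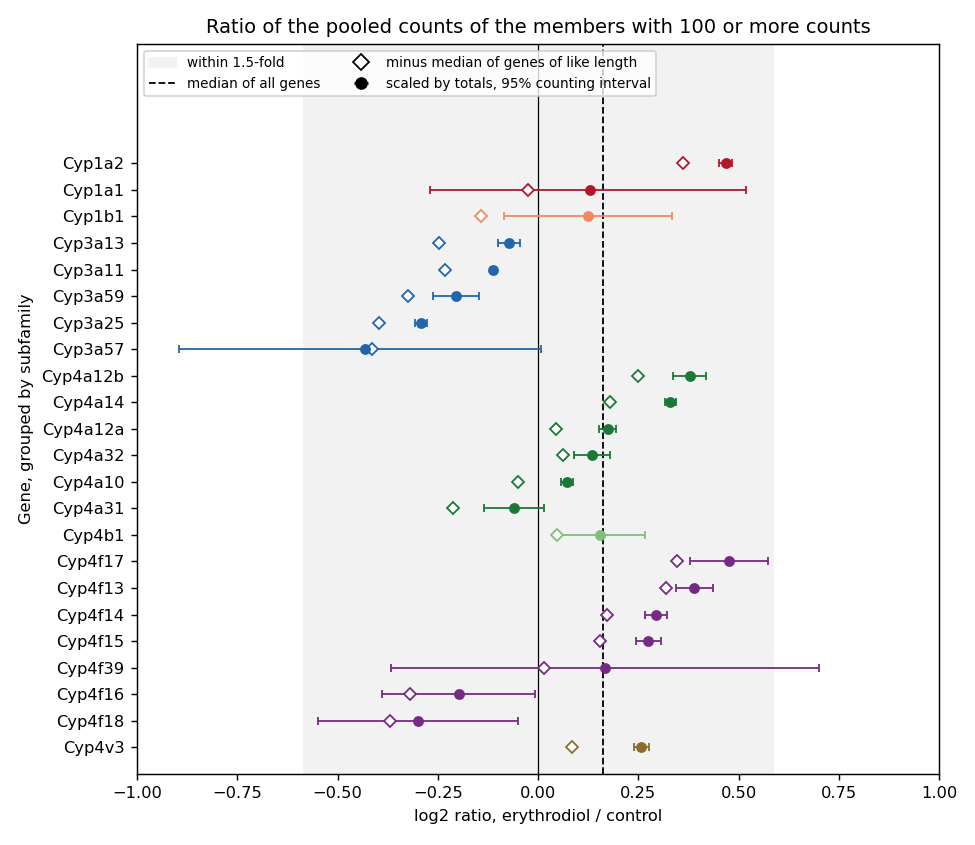
log2 ratio of erythrodiol to control (x axis) for the 23 genes with at least 100 counts, grouped by subfamily (y axis). Filled points are ratios of counts scaled by group totals with their 95% counting interval, open diamonds the same minus the median of genes of like length, the grey band marks 1.5-fold and the dashed line the median of all genes, 0.16. The 5 Cyp3a genes lie left of 0 on both measures, though Cyp3a11 and Cyp3a13 were higher by TPM, while Cyp1a2 and Cyp4f17 lie farthest right.

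Both genes of subfamily Cyp1a lie within 27 kilobases of chromosome 9 (57676937 to 57703824 of GRCm38). Cyp1a2, the constitutive hepatic enzyme that oxidizes arylamines and caffeine, had 49931 counts in the control and 70042 in the erythrodiol group, or 406 and 562 CPM. This was 1.38-fold higher (1.37 to 1.40), a log2 ratio of 0.47, or 0.36 relative to like length. Of the genes of its length class, 95.5% had a lower ratio, and the direction was the same under all 5 scalings. By level per length it ranked 355 of all genes in the control and 219 with erythrodiol.

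Cyp1a1, the gene most strongly induced by AhR ligands in most tissues, was at a low level. It had 105 counts in the control and 116 in the erythrodiol group, 1.09-fold (0.829 to 1.43). Relative to like length its log2 ratio was -0.03. For each 100 counts of Cyp1a2 there were 0.210 counts of Cyp1a1 in the control and 0.166 with erythrodiol. Cyp1b1, on chromosome 17, a steroid-oxidizing enzyme known mainly outside hepatocytes, had 358 and 396 counts, 1.09-fold (0.943 to 1.26), and -0.14 relative to like length. The higher level in family 1 was thus seen in Cyp1a2, while the intervals of Cyp1a1 and Cyp1b1 included no difference and, for Cyp1a1, also the fold of Cyp1a2.

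The bases before the starts of these genes are shown because GCGTG, the core of the element bound by AhR, was searched in them. RefSeq sequences of build GRCm38.p6 covered 24 of the 31 genes with 250 bases before the start. The last 80 bases before the start of Cyp1a1 (chr9:57697533-57697612, plus strand) are printed in lower case with matches to GCGTG and TATAAA in capitals. For Cyp1a2, the window from 250 to 49 bases before the start (chr9:57683704-57683905, minus strand) held no match to any motif searched.
Cyp1a1: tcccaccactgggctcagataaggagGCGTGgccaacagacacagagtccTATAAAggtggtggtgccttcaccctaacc
Cyp1a2: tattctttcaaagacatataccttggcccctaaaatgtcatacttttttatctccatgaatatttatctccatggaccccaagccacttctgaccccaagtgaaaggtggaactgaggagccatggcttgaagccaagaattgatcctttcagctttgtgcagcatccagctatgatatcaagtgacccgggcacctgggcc
On either strand, GCGTG was present in the windows of 6 of the 24 genes, Cyp1a1, Cyp1b1, Cyp4f14, Cyp4f16, Cyp4f39 and Cyp4v3, and in 28.2% of the 27025 promoters of the table. In Cyp1a1 it lay 54 to 50 bases before the start, and TATAAA lay 30 to 25 bases before it. In Cyp1a2, TATAAA lay 29 to 24 bases before the start. Such matches are descriptions of letters and not binding sites.

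Genes of the AhR pathway other than the cytochromes were read from a list of 12 targets, of which 10 had at least 100 counts. None was past 1.5-fold, and their median log2 ratio was 0.14, or 0.07 relative to like length. The highest was Xdh, which encodes xanthine dehydrogenase, with 20956 and 28509 counts, 1.34-fold (1.32 to 1.37). The lowest was Gsta1, a glutathione transferase, with 2533 and 1811 counts, 0.705-fold (0.663 to 0.749). The value of Cyp1a2 was above each of them in log2 ratio. Counts past 1.5-fold in this and the later lists stand beside the shares of all genes. In CPM these were 2.55% higher and 3.14% lower, and relative to like length 1.07% and 3.57%.

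Subfamily Cyp3a was the most abundant, with 4316 CPM in the control and 3930 in the erythrodiol group, or 0.432% and 0.393% of all counts. The sum was 0.911-fold (0.907 to 0.914), a log2 ratio of -0.13, or -0.26 relative to like length. All 5 of its genes with at least 100 counts were lower in CPM, under TMM, under the median of ratios and relative to like length, whereas by TPM the sum was at 0.02 and Cyp3a11 and Cyp3a13 were slightly higher. The sign of the subfamily's ratio thus depended on whether the total was taken over reads or over molecules per length. Its place below the typical gene did not, since by TPM the median log2 ratio of all genes was 0.31. The sum, Cyp3a11 at 0.04 and Cyp3a13 at 0.08 were all below that median.

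Cyp3a11, the main hepatic member and the counterpart of human CYP3A4 in drug and bile acid oxidation, had 431019 and 404688 counts. It was 0.925-fold (0.921 to 0.929) in CPM, with a log2 ratio of -0.11 in CPM and 0.04 in TPM. Its levels were 2807 and 2887 TPM, ranks 43 and 45 of all genes, the only one of the 31 genes among the first 100 in the control. It made up 81.3% of the Cyp3a counts in the control and 82.6% with erythrodiol.

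Cyp3a25, a hepatic steroid hydroxylase next to it on chromosome 5, had 73622 and 61037 counts, 0.817-fold (0.808 to 0.826). Its log2 ratio was -0.29, or -0.40 relative to like length, and 10.4% of the genes of its length class were lower. Its share of the subfamily was 13.9% in the control and 12.5% with erythrodiol, and for each 100 counts of Cyp3a11 there were 17.1 and 15.1 of Cyp3a25. Such a ratio within a group is free of the scaling, so Cyp3a25 was lower relative to Cyp3a11 whatever the scaling.

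Cyp3a59, a close copy of Cyp3a25, had 5244 and 4619 counts, 0.868-fold (0.834 to 0.903). Cyp3a57 was rare, with 98.6 and 74.2 counts, 0.741-fold (0.538 to 1.01), and its interval included no difference. It was past 1.5-fold lower under TMM, at -0.59, and under no other scaling. Cyp3a13, which lies apart from the cluster on the same chromosome and is also expressed in the intestine, had 20310 and 19597 counts, 0.951-fold (0.932 to 0.970). Thus Cyp3a25, Cyp3a57 and Cyp3a59 were lower under all 5 scalings, while Cyp3a11 and Cyp3a13 were lower under 4 and higher by TPM. Cyp3a59 by TPM was at -0.05, however, within counting error of no difference.

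The other genes of the subfamily were barely detected. Cyp3a41a and Cyp3a41b, known as female-predominant, had 12.3 and 9 counts and 14.8 and 13 counts, respectively. Cyp3a44, also female-predominant, had 38 and 35 counts, and Cyp3a16, known from the fetal and newborn liver, had 3 and 1. For the first 3 the intervals included no difference, and for Cyp3a16 no fold is given because neither group exceeded 3 counts. The levels of the subfamily thus ran from 0.024 TPM for Cyp3a16 to 2807 TPM for Cyp3a11 in the control.

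**Figure D2:**
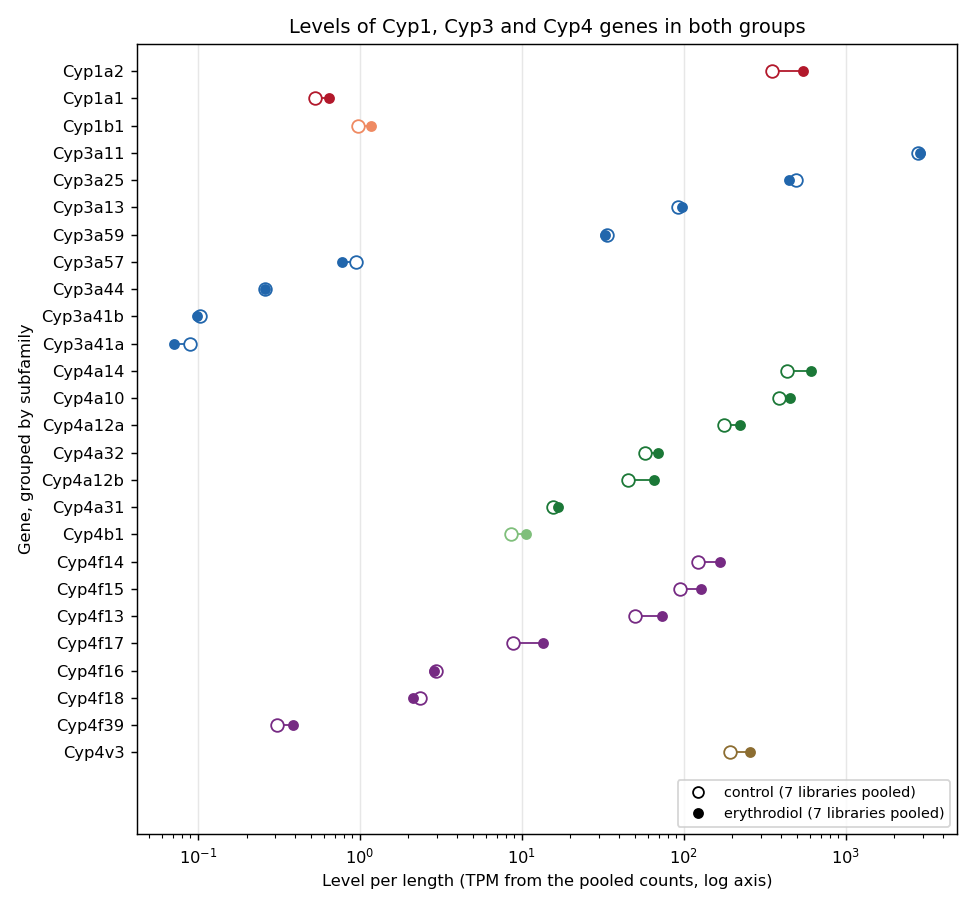
Level per length in TPM (x axis, log scale) of the 26 genes above 3 counts in at least 1 group, grouped by subfamily (y axis). Open circles are the control and filled circles the erythrodiol group, each the sum of 7 libraries, and the distance between them includes the shift of 0.15 of the TPM scale. Cyp3a11 is highest at 2807 and 2887 TPM and Cyp3a41a lowest at 0.089 and 0.072 TPM.

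Of the 9 Cyp3a genes, 8 lie side by side on chromosome 5 (145345149 to 146114978, 770 kilobases) with coding sequences 74.5% or more identical between any pair. A stretch of 55 bases is shown for the 7 genes in which half-sites of nuclear receptors were found, since PXR, CAR and related receptors bind such half-sites. Matches to AGGTCA and AGTTCA on either strand are in capitals. The stretches were lined up on the matched half-sites and chosen after the matches were seen.
Cyp3a25 (chr5:146009754-146009808, minus strand): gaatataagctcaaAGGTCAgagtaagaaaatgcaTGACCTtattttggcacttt
Cyp3a57 (chr5:145345081-145345135, plus strand): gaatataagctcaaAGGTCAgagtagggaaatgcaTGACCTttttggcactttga
Cyp3a59 (chr5:146079067-146079121, plus strand): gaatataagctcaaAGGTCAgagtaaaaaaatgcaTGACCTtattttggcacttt
Cyp3a11 (chr5:145879976-145880030, minus strand): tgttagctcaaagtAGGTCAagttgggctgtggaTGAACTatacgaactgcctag
Cyp3a44 (chr5:145805984-145806038, minus strand): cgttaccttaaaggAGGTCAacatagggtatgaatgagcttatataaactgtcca
Cyp3a41a (chr5:145720246-145720300, minus strand): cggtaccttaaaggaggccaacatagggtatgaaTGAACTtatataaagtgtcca
Cyp3a41b (chr5:145584840-145584894, minus strand): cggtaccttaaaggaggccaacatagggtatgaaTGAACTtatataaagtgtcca
Cyp3a25, Cyp3a57 and Cyp3a59, the 3 Cyp3a genes that were lower under all 5 scalings, each held AGGTCA on both strands, starting 176, 174 and 177 bases before the start. Cyp4f16 and Cyp4f18 were also lower under all 5 scalings, and their windows held neither half-site. Cyp3a11 held AGGTCA at 162 and the reverse of AGTTCA at 142 bases before its start, and Cyp3a44 held AGGTCA alone. The windows of Cyp3a41a and Cyp3a41b held the reverse of AGTTCA alone, and those of Cyp3a13 and Cyp3a16 neither. AGGTCA was present in 13.8% and AGTTCA in 11.9% of all promoters of the table, and in 6 each of the 24 windows of these families. The coding sequences of Cyp3a25, Cyp3a57 and Cyp3a59 were 93.9% to 97.5% identical, so the shared half-sites are those of near copies and not separate observations. Direct repeats of AGGTCA spaced by 1 or 4 bases and everted repeats of AGTTCA spaced by 6 were found in 0 of the 24 windows, and in 10, 3 and 2 of the 27025 promoters, respectively.

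Targets of PXR and CAR other than Cyp3a were read from a list with 22 genes in the table, all with at least 100 counts. Of these, 3 were past 1.5-fold higher and 0 lower in CPM, beside 2.55% and 3.14% of all genes, respectively. The median log2 ratio of the list was 0.13, or -0.03 relative to like length. Cyp2b10, a classical target of CAR, had 43.2 and 134 counts, 3.06-fold (2.16 to 4.44). Alas1, the first enzyme of heme synthesis, had 26953 and 44015 counts, 1.61-fold (1.59 to 1.63). Por, the reductase that supplies all microsomal P450 enzymes, had 23187 and 36205 counts, 1.54-fold (1.51 to 1.57). The lowest of the list was Sult1d1, a sulfotransferase, with 12659 and 8619 counts, 0.671-fold (0.653 to 0.690). Relative to like length Cyp2b10 was still past 1.5-fold higher at 1.51, Alas1 at 0.53 and Por at 0.47 were within it, and Sult1d1 at -0.70 was past it lower. Of the 22 genes, 15 were higher and 7 lower in CPM, and 10 lay above and 12 below like length.

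The genes of subfamily Cyp4a lie with Cyp4b1 and Cyp4x1 within 541 kilobases of chromosome 4 (115106323 to 115647721). Their sum was 1566 CPM in the control and 1819 in the erythrodiol group, 1.16-fold (1.15 to 1.17), a log2 ratio of 0.22. Relative to like length it was 0.08. Of the 6 genes with at least 100 counts, 5 were higher and 1 was lower in CPM. The sum stayed above 0 under each scaling, and the members differed among themselves by more than the sum differed from 0.

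Cyp4a14 was the most abundant, with 81005 and 103292 counts, 1.26-fold (1.25 to 1.27), and 0.18 relative to like length. Cyp4a10, the other classical target of PPARA, had 60732 and 64775 counts, 1.05-fold (1.04 to 1.06), and -0.05 relative to like length. For each 100 counts of Cyp4a10 there were 133 of Cyp4a14 in the control and 160 with erythrodiol. The lead of Cyp4a14 over Cyp4a10 was thus larger in the erythrodiol group, and Cyp4a14 made up 42.1% and 45.6% of the subfamily while Cyp4a10 made up 31.6% and 28.6%.

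Cyp4a12a, the male-predominant hydroxylase of arachidonic acid, had 32038 and 36651 counts, 1.13-fold (1.11 to 1.14). Its near copy Cyp4a12b had 8171 and 10772 counts, 1.30-fold (1.26 to 1.34), and 88.4% of the genes of its length class had a lower ratio. Both were higher under all 5 scalings, though Cyp4a12a under TMM was at 0.016, within counting error of no difference. Cyp4a32 had 7560 and 8418 counts, 1.10-fold (1.06 to 1.13), and Cyp4a31 had 2917 and 2837, 0.959-fold (0.910 to 1.01). Cyp4a31 was the only gene of the subfamily lower in CPM, and its interval included no difference. Relative to like length, however, Cyp4a31 was at -0.21, and by TPM at 0.09. Cyp4a29 was at 0 and 2 counts, where no fold is given.

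Near copies share reads, which the counting program divides between them, and the sequences of these pairs are shown for that reason. In GENCODE vM21, the coding sequences of Cyp4a12a and Cyp4a12b differ at 23 of 1527 positions and those of Cyp4a10 and Cyp4a32 at 43 of 1530. For each pair, the 90 coding bases with the most differences are printed, with differing bases in capitals. They are coding bases 661 to 750 of Cyp4a12a and Cyp4a12b, counted from the first base of the start codon, with 7 differences. For Cyp4a10 and Cyp4a32 they are coding bases 190 to 279, with 13 differences.
Cyp4a12a: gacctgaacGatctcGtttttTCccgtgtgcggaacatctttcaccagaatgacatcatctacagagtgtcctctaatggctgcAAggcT
Cyp4a12b: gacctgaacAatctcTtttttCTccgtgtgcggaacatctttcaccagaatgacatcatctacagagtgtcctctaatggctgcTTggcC
Cyp4a10: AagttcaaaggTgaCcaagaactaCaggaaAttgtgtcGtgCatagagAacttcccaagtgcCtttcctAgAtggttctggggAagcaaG
Cyp4a32: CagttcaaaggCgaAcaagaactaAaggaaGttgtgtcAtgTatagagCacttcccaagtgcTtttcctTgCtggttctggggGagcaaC
Of all stretches of 100 bases in its transcript, 35.8% of Cyp4a12a and 36.2% of Cyp4a12b occurred in the other, so the split between these 2 genes is uncertain. Of Cyp4a10, 12.7% occurred in Cyp4a32 or Cyp4a31, of Cyp4a32 20.1%, of Cyp4a31 8.22%, and of Cyp4a14 none. The ratios between Cyp4a12b and Cyp4a12a, and between Cyp4a10, Cyp4a31 and Cyp4a32, thus depend on how shared reads were divided.

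Shared stretches were examined in the same way for all 31 genes. Counts with decimals, which arise when reads are divided, were found in 14 genes, of which 13 shared at least 1 stretch of 100 bases with another gene. Of the 17 genes with whole counts in both groups, 7 shared such a stretch, and at most 5.77% of theirs. The largest shares were 90.8% and 88.2% for Cyp3a41a and Cyp3a41b, whose coding sequences differ at 2 of 1515 positions. Cyp3a25 and Cyp3a59 shared 6.05% and 5.61% of their stretches. Cyp1a1 and Cyp1a2 shared 1.46% and 2.06%, and the effect of this on the far rarer Cyp1a1 was not tested. The counts of Cyp3a11, Cyp4a14, Cyp4f13, Cyp4f14, Cyp4f15, Cyp4f17 and Cyp4v3 were whole numbers.

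**Figure D3:**
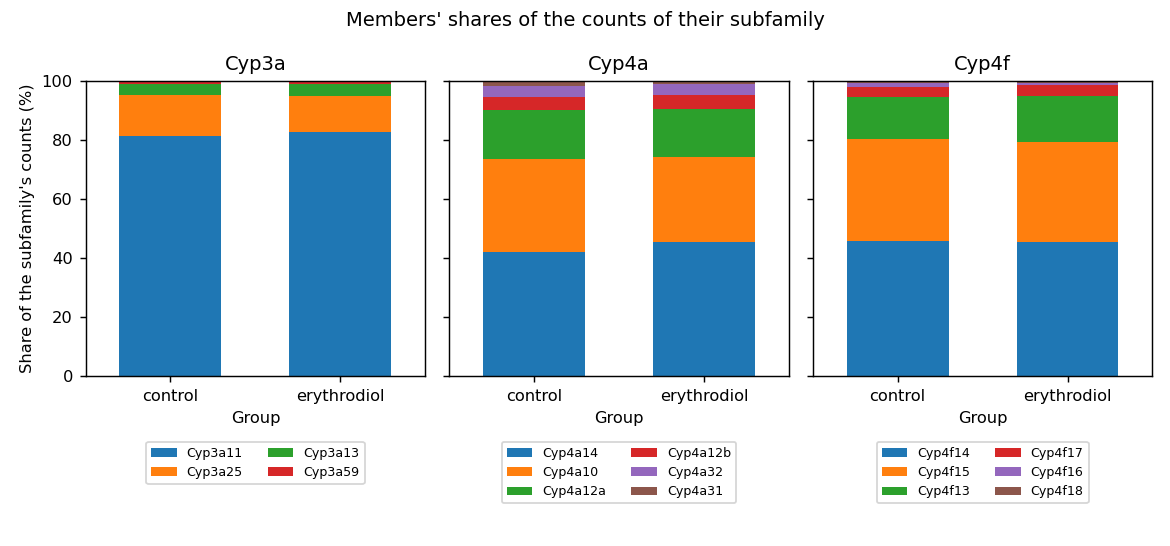
Share of each gene in the counts of its subfamily (y axis, percent) in the control and erythrodiol groups (x axis) for Cyp3a, Cyp4a and Cyp4f; genes under 0.5% in the control are left out. Cyp3a11 takes 81.3% and 82.6% of Cyp3a, Cyp4a14 42.1% and 45.6% of Cyp4a, and Cyp4f14 45.8% and 45.6% of Cyp4f.

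PPARA targets other than Cyp4a were read from a list of 30 genes, all with at least 100 counts. Their median log2 ratio was 0.18, or 0.01 relative to like length, with 1 gene past 1.5-fold in each direction. Fgf21, the fasting hormone of the liver, had 1207 and 2695 counts, 2.20-fold (2.06 to 2.36). Cd36, a fatty acid transporter, had 21278 and 13007 counts, 0.602-fold (0.589 to 0.616). Relative to like length, 17 of the list were above and 13 below, as 4 and 2 of the Cyp4a genes were.

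Cyp4b1, known mainly from the lung, had 1197 and 1351 counts, 1.11-fold (1.028 to 1.203). Its log2 ratio was 0.15 in CPM and -0.0030 under TMM, so it followed the median of all genes. Cyp4x1, known from the brain, had 2 and 0 counts. Cyp4v3, on chromosome 8, the counterpart of human CYP4V2 in fatty acid oxidation, had 42346 and 51335 counts, 1.19-fold (1.18 to 1.21). It was 0.08 above like length and higher under all 5 scalings. Its level of 193 and 257 TPM was close to that of Cyp4a12a, at 177 and 222 TPM.

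Subfamily Cyp4f, whose enzymes inactivate leukotrienes and hydroxylate long fatty acids, had 355 and 437 CPM in the control and erythrodiol groups, respectively. The sum was 1.23-fold (1.22 to 1.25), a log2 ratio of 0.30, or 0.19 relative to like length, and stayed above 0 under each scaling. Of the 7 genes with at least 100 counts, 5 were higher and 2 lower in CPM, with the same split relative to like length. The 4 most abundant genes were all higher.

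Cyp4f14, the most abundant, had 19970 and 24833 counts, 1.23-fold (1.203 to 1.249). Cyp4f15 had 15027 and 18449, 1.21-fold (1.18 to 1.24), and for each 100 counts of Cyp4f14 there were 75.3 and 74.3 of it. Cyp4f13 had 6331 and 8416, 1.31-fold (1.27 to 1.35). These 3 genes, side by side on chromosome 17, made up most of the subfamily and kept nearly the same proportions.

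Cyp4f17 had 1467 and 2069 counts, 1.39-fold (1.30 to 1.49), the highest ratio of the 23 genes with at least 100 counts, and 95.5% of the genes of its length class were lower. Its neighbour Cyp4f16 had 484 and 428 counts, 0.872-fold (0.763 to 0.995). For each 100 counts of Cyp4f16 there were 303 of Cyp4f17 in the control and 484 with erythrodiol. Thus adjacent genes of the cluster differed in sign under all 5 scalings, though Cyp4f16 by TPM was at -0.05, within counting error of no difference. Of the transcript of Cyp4f16, 9.80% of stretches of 100 bases occurred in Cyp4f37 or Cyp4f17, and of Cyp4f17 0.0704% in Cyp4f16.

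Cyp4f18, on chromosome 8, known from neutrophils and other leukocytes, had 297 and 245 counts, 0.813-fold (0.684 to 0.966), and -0.37 relative to like length. It was the only Cyp4f gene outside the cluster of chromosome 17 (32452697 to 32947415, 495 kilobases). Cyp4f39, the counterpart of human CYP4F22 of the skin, had 58 and 66 counts, 1.12-fold (0.776 to 1.62). Cyp4f37 had 0 and 1.04 counts and Cyp4f40 had 1 and 0. The Cyp4f genes lower in CPM were thus both of low level, at 2.97 TPM for Cyp4f16 and 2.37 TPM for Cyp4f18 in the control.

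The 250 bases before the first listed start of Cyp4f14 (chr17:32917357-32917606, minus strand) are shown as those of the leading gene of the subfamily, with matches to any motif searched in capitals. They held only the reverse of GCGTG, 237 to 233 bases before the start.
Cyp4f14: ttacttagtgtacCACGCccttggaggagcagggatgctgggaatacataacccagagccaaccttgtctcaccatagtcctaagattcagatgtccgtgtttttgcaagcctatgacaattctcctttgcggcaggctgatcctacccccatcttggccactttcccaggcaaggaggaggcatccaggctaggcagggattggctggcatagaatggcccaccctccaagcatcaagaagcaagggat
TTCNNNGAA, the motif of STAT5, which carries the growth hormone signal behind sex-dependent liver genes, was found in the windows of Cyp4b1 and Cyp4f13 and in 7.18% of all promoters. TATAAA was found in 8 of the 24 windows and in 13.0% of all promoters. No window was listed for Cyp4a10, Cyp4a12a, Cyp4a12b, Cyp4a14, Cyp4a31, Cyp4f17 and Cyp4x1.

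**Figure D4:**
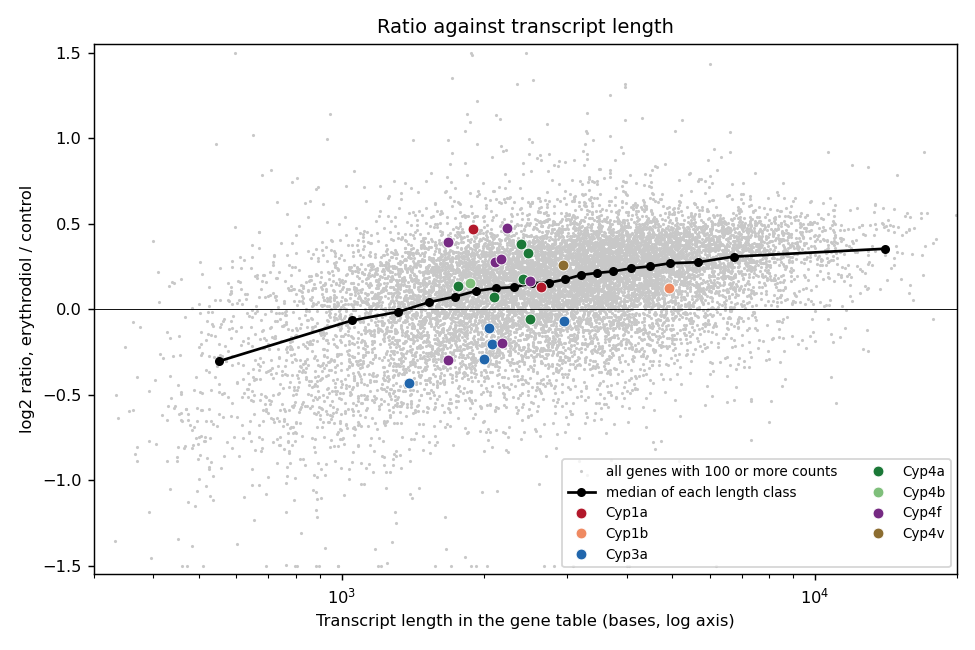
log2 ratio of erythrodiol to control (y axis, values beyond 1.5 drawn at the edge) against transcript length in the gene table (x axis, bases, log scale). Grey points are all genes with at least 100 counts, the black line joins the medians of 20 length classes, from -0.30 to 0.35, and coloured points are the genes of families 1, 3 and 4. The 23 genes span 1390 to 4928 bases, and the Cyp3a genes lie below the line.

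The subfamilies can be set against each other without any scaling. For each 100 counts of Cyp3a, there were 36.3 counts of Cyp4a in the control and 46.3 with erythrodiol. For Cyp4f they were 8.23 and 11.1, and for Cyp1a 9.43 and 14.3. For each 100 counts of Cyp4a there were 22.7 and 24.0 of Cyp4f. Thus Cyp1a, Cyp4a and Cyp4f all stood higher against Cyp3a in the erythrodiol group, by a log2 difference of 0.60, 0.35 and 0.43, respectively, and Cyp4f against Cyp4a by 0.08. As these are single values per group, whether the libraries agree in them is unknown.

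The regulators of these cytochromes were read from a list of 23 genes with a median log2 ratio of 0.30, or 0.07 relative to like length. Of these, 22 were higher and 1 lower in CPM, and 16 and 7 lay above and below like length. Onecut1, a hepatocyte transcription factor, was the one past 1.5-fold, with 947 and 1975 counts, 2.06-fold (1.90 to 2.22). Cebpa, a factor of liver differentiation, was the lowest, with 55268 and 51819 counts, 0.924-fold (0.913 to 0.935). In the list of 15 redox partners and genes of heme supply, with a median of 0.24, or 0.14 relative to like length, Por and Alas1 (above) were past 1.5-fold higher in CPM. Cyb5a, the cytochrome that assists Cyp3a enzymes, was past it lower, with 134027 and 90395 counts, 0.665-fold (0.659 to 0.670). It was -0.28 relative to like length, and all 3 genes were within 1.5-fold there.

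Sex-biased liver genes were read because Cyp4a12a, Cyp3a41a, Cyp3a41b and Cyp3a44 are sex-dependent. The 18 male-biased genes had a median of 0.02, or -0.04 relative to like length, with 0 past 1.5-fold higher and 3 lower. These were Moxd1 with 608 and 149 counts, 0.241-fold (0.201 to 0.289), Mup1 with 218879 and 78479, 0.353-fold (0.350 to 0.356), and Mup20 with 2318301 and 1532580, 0.652-fold (0.650 to 0.653). Mup genes are near copies of each other, so their split is uncertain. Cyp2u1 was the highest of the list, with 1295 and 1787 counts, 1.36-fold (1.26 to 1.46). Mup20 was -0.31 relative to like length and thus within 1.5-fold there, where Ugt2b1 at -0.66 was past it lower and Gstp1 at 0.69 higher. Of the 18, 10 were higher and 8 lower in CPM, and 6 lay above and 12 below like length.

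Of the 20 female-biased genes, 16 had at least 100 counts, with a median of 0.03, or -0.14 relative to like length. Cyp2a4 with 6725 and 17398 counts, 2.55-fold (2.48 to 2.62), and Cyp17a1 with 741 and 1659, 2.21-fold (2.02 to 2.41), were past 1.5-fold higher. Past it lower were Cyp2b9 with 6015 and 1524 counts, 0.250-fold (0.236 to 0.264), Cyp2b13 with 336 and 27.0, 0.0793-fold (0.0514 to 0.117), Hao2 with 557 and 147, 0.260-fold (0.215 to 0.312), and Prom1 with 240 and 132, 0.542-fold (0.435 to 0.673). The list thus had members past the limit in both directions, and the female-predominant Cyp3a genes were too rare to be placed in it.

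Outside families 1, 3 and 4 there were 62 genes of cytochromes P450, 48 of them with at least 100 counts. Past 1.5-fold in CPM, 8 were higher and 2 lower, beside 2.55% and 3.14% of all genes, respectively. Their number past 1.5-fold relative to like length was not counted. Of the 33 such Cyp2 genes other than Cyp2b, 1 was higher and 0 lower. The 48 ran from -3.66 to 1.61 in log2 ratio, with both ends held by Cyp2b genes, and the 23 from -0.43 to 0.48. Families 1, 3 and 4 held 0.700% of all counts in the control and 0.717% with erythrodiol, and the others 1.70% and 1.97%.

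Markers of other liver cells are given because fewer cells of a type and less RNA per cell cannot be told apart in whole tissue. Of 10 Kupffer cell and macrophage markers, 9 were lower in CPM, at a median log2 ratio of -0.61 and a summed level of 1299 and 854 CPM. Adgre1, Cd5l, Clec4f, Lyz2, Marco and Vsig4 were past 1.5-fold lower, from 0.477-fold for Marco to 0.664-fold for Vsig4, while Cd68 was highest at 1.03-fold (0.989 to 1.06). The median relative to like length was -0.56, and Lyz2 at -0.56 and Vsig4 at -0.57 were within 1.5-fold. Of 7 bile duct markers with at least 100 counts, 6 were lower, at a median of -0.55 and a sum over 8 markers of 141 and 109 CPM, with Krt19, Muc1 and Spp1 past 1.5-fold lower. Spp1 lay just within 1.5-fold relative to like length, at -0.58, and Epcam, at -0.55 in CPM, was past it at -0.67. Cyp4f18, a gene of leukocytes, was lower in CPM, while of 10 lymphocyte markers 5 were higher and 5 lower. No list of neutrophil markers was read, and the part of leukocytes in the value of Cyp4f18 was not tested.

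The other marker lists had no gene past 1.5-fold in CPM. The 10 endothelial markers had a median of 0.15, or -0.08 relative to like length, from Clec4g at -0.26 to Kdr at 0.33, and sums of 327 and 357 CPM. The 10 stellate cell and fibroblast markers had a median of 0.02, from Lum at -0.37 to Reln at 0.19, and sums of 620 and 589 CPM. All 10 of these lay below like length, at a median of -0.25. The 10 lymphocyte markers had a median of -0.05, or -0.08 relative to like length, with Ms4a1 lowest at -0.50 and -0.62, respectively, and sums of 12.0 and 11.6 CPM. No marker of any list was at 0 counts in either group.

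Hepatocyte zones were read because Cyp1a2 and Cyp3a11 are known to be richest around the central vein. The 17 pericentral markers had a median of 0.08, or 0.02 relative to like length, and sums of 14763 and 16140 CPM. In CPM none was past 1.5-fold, and they ran from Rgn at -0.57 to Lgr5 at 0.49, while relative to like length Rgn was past 1.5-fold lower at -0.61. The 18 periportal markers had a median of 0.19, or 0.08 relative to like length, and sums of 92898 and 91928 CPM. Pck1, a key enzyme of gluconeogenesis, was past 1.5-fold higher, with 109728 and 174872 counts, 1.57-fold (1.56 to 1.58), but within it relative to like length at 0.50, and Sdhd was lowest at -0.39. The 11 hepatocyte defining markers had a median of 0.18, from Fgb at -0.17 to Tat at 0.38. Cyp1a2 and Cyp3a11 lay on opposite sides of the pericentral median.

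**Figure D5:**
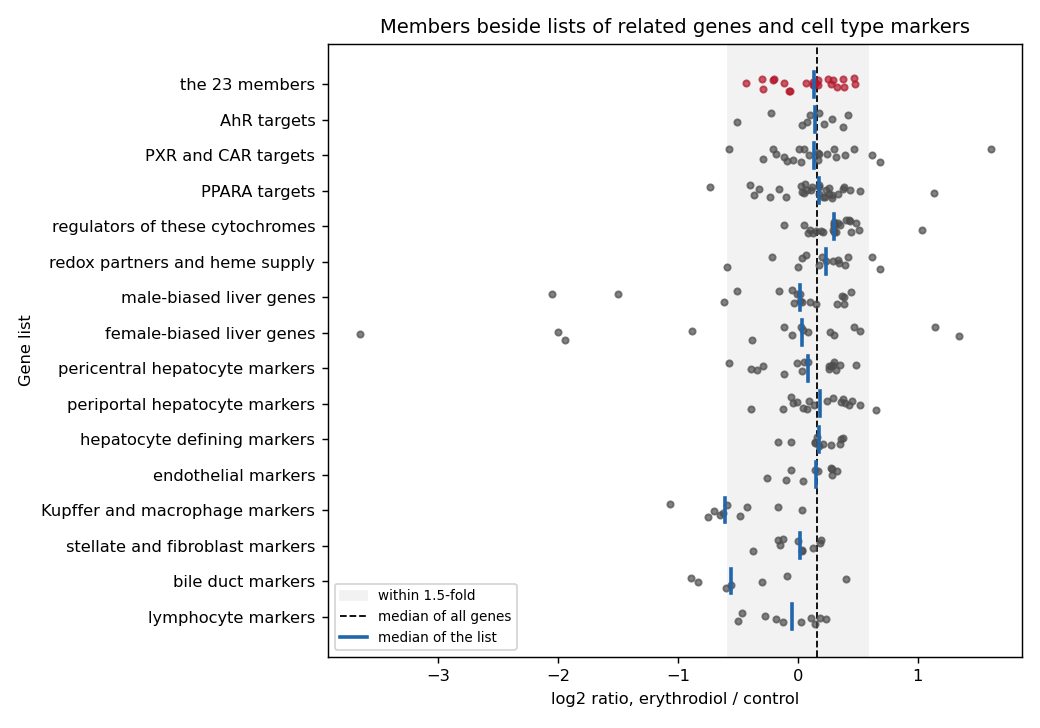
log2 ratio of erythrodiol to control (x axis) of the 23 genes of families 1, 3 and 4 (top, red) and of 15 lists of related genes and cell type markers (y axis), each point 1 gene with at least 100 counts. Blue bars are list medians, the dashed line is the median of all genes, 0.16, and the grey band marks 1.5-fold. The 23 genes stay within the band, and the Kupffer cell and bile duct lists have medians of -0.61 and -0.55.

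Transcripts that the authors' assembly added to the reference annotation, pooled over all libraries, numbered 24 for 10 of the 31 genes. Cyp4a32 had 7, Cyp3a25 had 6, Cyp3a59 had 3 and Cyp4f15 had 2, and each of the other 6 genes had 1. None of the 31 genes was among the genes of the deposited tables of splicing differences.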

How the data were processed

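Liver RNA of 14 pools, 7 per group, was sequenced in paired-end mode, and the labels gave the groups. Per the submitters' processing notes, the authors used HISAT, StringTie, Cufflinks, GATK, Bowtie2 and RSEM; versions are not given in the sources used here. The authors deposited 1 expected count per gene and group, summed over the libraries and not normalized, with a transcript length. Deposited values for single libraries were counts (clean reads, detected genes and transcripts) and mapping rates in percent. The authors' own ratio, p-value and q-value columns were not used. Expected counts were used as deposited, without rounding. CPM and TPM were computed from them, and a ratio was called past 1.5-fold, over genes with at least 100 counts, also after subtracting the median of 20 equal classes of length. Intervals are exact binomial (Clopper-Pearson), at 95%. With no counts per library, no count model was fitted, and the sums of a whole group were normalized alone in edgeR and DESeq2.

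The members and the gene lists were chosen with earlier results of these data known. Named genes are every member, Apoe and, of each list, those past 1.5-fold and the highest and lowest with at least 100 counts; list symbols held by 2 genes were read from the one with more counts, and Ces6 and Tf were not matched. The highest genes of the bile duct and lymphocyte lists are not reported here. Coordinates are of GRCm38 (RefSeq), and coding sequences of GENCODE vM21 were aligned in Biopython 1.88. Alternatives were TMM (edgeR 4.0.16), median of ratios (DESeq2 1.42.0), like length, the 500 genes nearest in length, a minimum of 10 counts, a pseudocount of 1, a limit of 2-fold, a sum without the leading member and the median of members. The limit of 1.2-fold and TPM were added after the data were seen. Ratios and the length correction were tested on simulated data. Python 3.11.15, pandas 2.3.3, scipy 1.17.1, matplotlib 3.10.9 and R 4.3.3 were used.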

Additional observations from a re-analysis of the deposited data

Results flagged for a closer look

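In control replicate 3, 64.33% of clean reads mapped to genes, and its gap to the next library, relative to the range of the 7 control libraries, was above the 95% critical value of Dixon's test. For a single measure, chance gives such a gap in about 1 in 20 groups, and several measures were recorded per library. This library is part of the control sum of every gene named above, and there is no gene value without it.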

How the results depend on the processing

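The summed log2 ratio of Cyp1a, 0.47 by totals, was 0.31 under TMM, 0.32 under the median of ratios, 0.36 relative to like length, 0.35 relative to the 500 genes nearest in length, 0.62 by TPM, 0.13 without Cyp1a2 and 0.30 as the median of members. For Cyp3a, at -0.13, the same alternatives gave -0.29, -0.28, -0.26, -0.25, 0.017, -0.24 without Cyp3a11 and -0.20, so that only TPM was on the other side of 0. For Cyp4a, at 0.22, they gave 0.059, 0.070, 0.082, 0.077, 0.37, 0.13 without Cyp4a14 and 0.15. For Cyp4f, at 0.30, they gave 0.14, 0.15, 0.19, 0.19, 0.45, and 0.28 as the median of members, while the sum without Cyp4f14 stayed within the counting interval at 0.31.

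No member was past 1.5-fold. With no minimum and a pseudocount of 1, 2 were past it higher and 3 lower, all at 3 counts or fewer in both groups. TPM gave 2 higher, TMM gave 1 lower (Cyp3a57), and a limit of 1.2-fold gave 7 higher and 3 lower, or 3 and 5 relative to like length. The other alternatives gave 0. Among 23 genes, 5 changed sign under TMM (Cyp1a1, Cyp1b1, Cyp4a10, Cyp4a32 and Cyp4b1), 4 under the median of ratios (the same without Cyp4b1), 3 relative to like length (Cyp1a1, Cyp1b1 and Cyp4a10) and 3 by TPM (Cyp3a11, Cyp3a13 and Cyp4a31). These shifts are the same for all genes under TMM, the median of ratios and TPM. No paired analysis was possible because each gene has 1 pooled count per group, and for the same reason no library could be left out.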
